A study of Marmota monax with 20 samples.

Results

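A group of 150 woodchuck genes was examined whose read counts differed strongly between the kidneys of 5 animals and little between the livers or between the spleens. Among them, the kidney of the male M4091 was the highest or the lowest of the 5 kidneys for 122 genes, 81.3%. The share was 51.9% over all genes of at least 500 normalised reads in a kidney, and 71.5% over the other genes as variable between kidneys by the limit used, so that much of it was not particular to the 150. The genes higher in every spleen than in every kidney behaved most alike. Of 29 genes with every spleen above every kidney, 27 (93.1%) were lowest in the kidney of M4091. The share was 37.1% over all genes with every spleen above every kidney, which were not chosen for kidney spread. Over the other genes as variable between kidneys, at any spleen level, it was 44.0%. Some of the 150 went the opposite way, such as Monax4B041937. It stood at 2995 normalised reads in the kidney of M4091 and at 51.4 or less in the other 4.

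The genes were chosen on the counts themselves. For each gene the count was divided by a library size factor to give a normalised read count, N, and the spread V was the ratio of the highest N plus 50 to the lowest N plus 50 within a tissue. Genes were kept with an N of at least 500 in a kidney, V above 5 over 5 kidneys and V of at most 3 over 6 livers and over 5 spleens. Of 30973 genes in the table, 12333 reached an N of 500 in a kidney, 561 of these had a kidney V above 5, and 229 passed every limit. The 150 with the largest kidney V were taken. Since the choice rests on the kidney values, the spread between kidneys is given as a description, without a test.

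The libraries were made from polyA RNA of untreated adult woodchucks (Marmota monax), all negative for woodchuck hepatitis virus. Kidney and spleen were sequenced from the females F6849 and F9150 and the males M4046, M4075 and M4091, and liver from these 5 and from the female F6852, with the sex read from the first letter of the animal's name. Heart and lung came from F6849 alone, and pancreas and thymus from F9150 alone, so these 4 tissues have no replicate. Ages of single animals and the piece of kidney sampled are not given in the sources used here.

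The kidney is built of filtering glomeruli and of tubules whose successive segments take up, secrete and concentrate. Cortex, which holds glomeruli and proximal tubules, and medulla, which holds the loops of Henle and collecting ducts, use partly different sets of genes. Liver is made up mostly of hepatocytes, and spleen of blood-filtering red pulp and lymphoid white pulp. The deposited gene identifiers were paired with no names in the sources used here, so neither the function of a gene nor the labelled tissue could be checked against known markers, and genes are described by their levels across tissues. No sequences are shown for the same reason. In bulk samples, fewer cells of a type and less RNA per cell cannot be told apart.

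Total counts ran from 63682684 to 107167963 in the kidneys and from 59487004 to 140252555 over all 20 libraries. The kidney of M4091 had the lowest total of the 5 kidneys and was the only kidney on lane 6, by the lane numbers in the names of the table's columns. The kidneys of F6849 and F9150 were both on lane 3, that of M4046 on lane 5 and that of M4075 on lane 1. The part of depth or lane in the spread between kidneys was not tested. The 150 genes held 0.852% to 1.80% of the counts of a kidney, 2.35% to 3.99% of a liver and 2.86% to 4.40% of a spleen. Every one of them had at least 536 reads in its highest kidney.

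Kidney V ran from 6.41 to 286 with a median of 8.76, against a median of 1.43 over the 12333 genes. It was above 10 for 52 of the 150, above 20 for 14 and above 50 for 7. The median V of the same genes was 1.65 in liver and 1.66 in spleen. Part of this low spread follows from low levels, since a gene at or under an N of 100 in every library of a tissue cannot pass a V of 3. This was so for 81 genes in liver, for 79 in spleen and for 60 in both. For 40 genes every liver and every spleen was at 100 or above, so that V there could have passed the limit and did not.

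**Figure D1:**
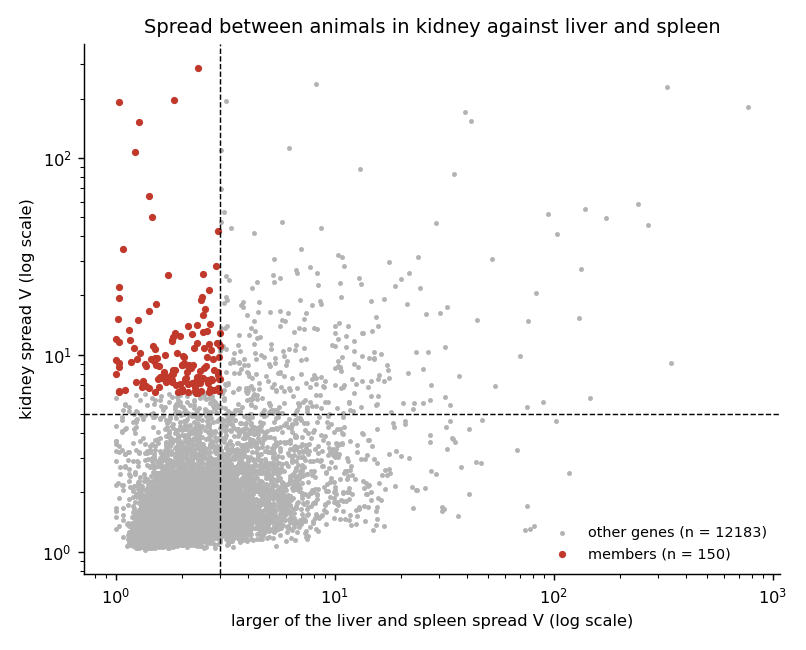
Spread V between the 5 kidneys (vertical, log scale) against the larger of the spread between 6 livers and between 5 spleens (horizontal, log scale) for 12333 genes with an N of at least 500 in a kidney. The 150 genes chosen (red) lie above the dashed line at 5 and left of the dashed line at 3, and their highest V is 286.

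The last gene within the limit of 150, Monax4B043832, had a V of 6.41, and the first outside, Monax4B016329, had 6.38. At the limit of V itself, Monax4B038136 stood at 5.002 and Monax4B025551 at 4.99. The lowest N that passed the minimum was 500.1 (Monax4B009038) and the highest that failed it 496.8 (Monax4B040626). In liver, the values on either side of the limit were 2.996 (Monax4B035005) and 3.002 (Monax4B009864), and in spleen 2.96 (Monax4B017774) and 3.02 (Monax4B006405).

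The widest spread belonged to Monax4B041735. It was at 57.4 in the kidney of F6849, 3306 in F9150, 6485 in M4046, 6388 in M4075 and 30655 in M4091. Its livers were between 0 and 7.31 and its spleens between 69.5 and 231.9, while the lung of F6849, the animal with the low kidney, was at 79202. The second, Monax4B001023, ran the other way, from 28.1 in the kidney of M4091 through 244 in F9150, 540.4 in M4046 and 1398 in M4075 to 15265 in F6849. No liver of it was above 32.6 and no spleen above 42.6.

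The 2 most abundant genes of the group in kidney also ran in opposite directions. Monax4B030330 was at 431137 in F6849, 188555 in F9150, 78703 in M4046, 115953 in M4075 and 22625 in M4091, a mean of 167394 ± 159278 (SD, n = 5). Monax4B039211 was at 21258, 26659, 76133, 102784 and 253011 in the same order, a mean of 95969 ± 94191 (SD, n = 5). Thus the former was highest in F6849 and lowest in M4091, and the latter highest in M4091 and lowest in F6849. Outside kidney, the former had 1466 to 3673 in spleen, 7.23 to 55.3 in liver and 132451 in pancreas, and the latter no more than 18.1 in any other library.

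The kidney of M4091 was the highest for 51 of the 150 genes, 34.0%, and that of F6849 for 43, M4046 for 26, M4075 for 16 and F9150 for 14. It was also the lowest for 71, 47.3%, followed by F9150 with 49, F6849 with 18, M4046 with 8 and M4075 with 4. Over the 12333 genes it was highest for 25.7% and lowest for 26.2%, and an extreme for 51.9%. Among the other 411 genes with a kidney V above 5, it was highest for 27.5% and lowest for 44.0%, together 71.5%.

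**Figure D2:**
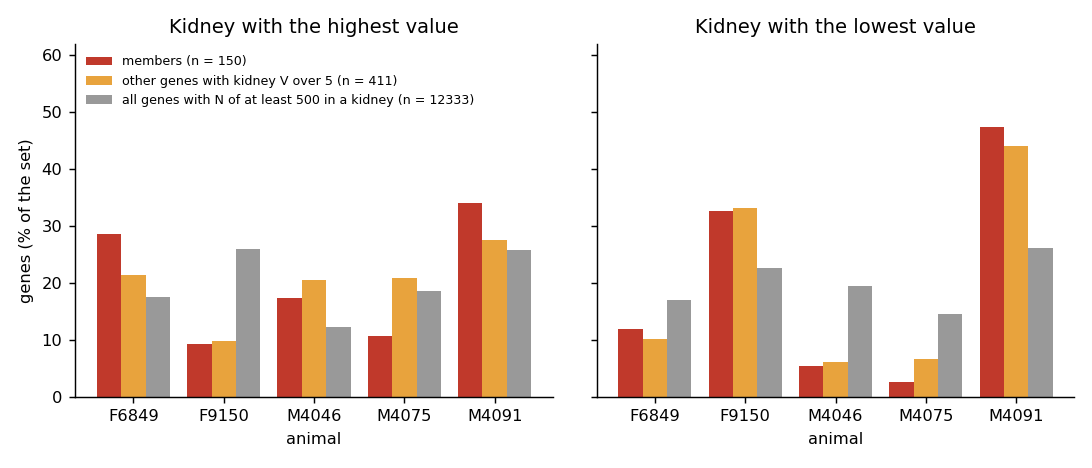
Share of genes (percent of the set) with each animal's kidney as the highest (left) or the lowest (right) of the 5, for the 150 genes, the other 411 genes with kidney V above 5 and all 12333 genes with an N of at least 500 in a kidney. The kidney of M4091 has the longest bars for the 150 genes in both panels, at 34.0% and 47.3%.

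A single kidney often stood apart. The highest kidney was at least 2 times the next (both plus 50) for 64 genes, of which 35 were highest in M4091, and at least 5 times the next for 7. The lowest was at least 2 times under the next for 48 genes, of which 32 were lowest in M4091, and at least 5 times for 9. Without the kidney of M4091, 72 of the 150 genes kept a V above 5, whereas 121 to 146 did without any of the other 4. Applied without that kidney, the rule passed 94 genes, 70 of them among the 150.

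Of the genes high in the kidney of M4091, Monax4B041937 was at 2995 there and at 28.1, 10.7, 43.6 and 51.4 in F6849, F9150, M4046 and M4075. Its livers (0 to 16.8) and spleens (0 to 23.3) were as low as those 4 kidneys, and the lung was at 254. Monax4B041879 was at 786 in that kidney, between 0 and 5.03 in the others, at 0 in heart, lung, pancreas and thymus, and at 20.6 in the liver of F9150. Hence the latter gene, but not the former, was under an N of 10 in all of the other 4 kidneys.

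The genes low in it had the reverse profile. Monax4B031983 was at 1178 in M4091 and at 18602, 12083, 10360 and 10863 in F6849, F9150, M4046 and M4075, with no read in any liver and 0.992 in 1 spleen. Monax4B001137 was at 479 in M4091 and at 6296, 4569, 4004 and 3999 in the others, with no read in any liver or spleen. In both genes the other 4 kidneys lay within 2 times of each other. Altogether 3 of the 150 genes had no read in any liver or spleen.

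The kidney of F6849 stood out for Monax4B020385, at 1095 there against 71.5 in F9150, 21.8 in M4046, 119.5 in M4075 and 1.87 in M4091, and that gene had at most 4.64 in any other library. The kidney of F9150 stood out for Monax4B038064, at 20630 against 2403 in F6849, 228 in M4046, 494 in M4075 and 86.1 in M4091. For Monax4B037733, too, F9150 was high, at 1129 against 18.7 to 117 in the other kidneys, but here every liver was far above, at 19520 to 44449. The lowest F9150 value relative to the other kidneys was that of Monax4B031180, at 52.7 against 1474 in F6849, 806 in M4046, 2750 in M4075 and 19629 in M4091. This gene had no read in any liver and 1.77 in 1 spleen.

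The 2 other males had fewer such genes. Monax4B040174 was at 3848 in the kidney of M4046 and at 320 to 758 in the others, and reached 40801 in heart. Monax4B043832 was at 918 in the same kidney and at 101 to 185 in the others, with 19687 in thymus. For M4075 the only gene high by at least 2 times was Monax4B029444, at 571 against 7.49 to 122, and the only gene low by as much was Monax4B036855, at 3.91 against 264 to 1100. The latter was at 6876 to 18482 in every liver, that of M4075 being the lowest, and had no read in any spleen.

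**Figure D3:**
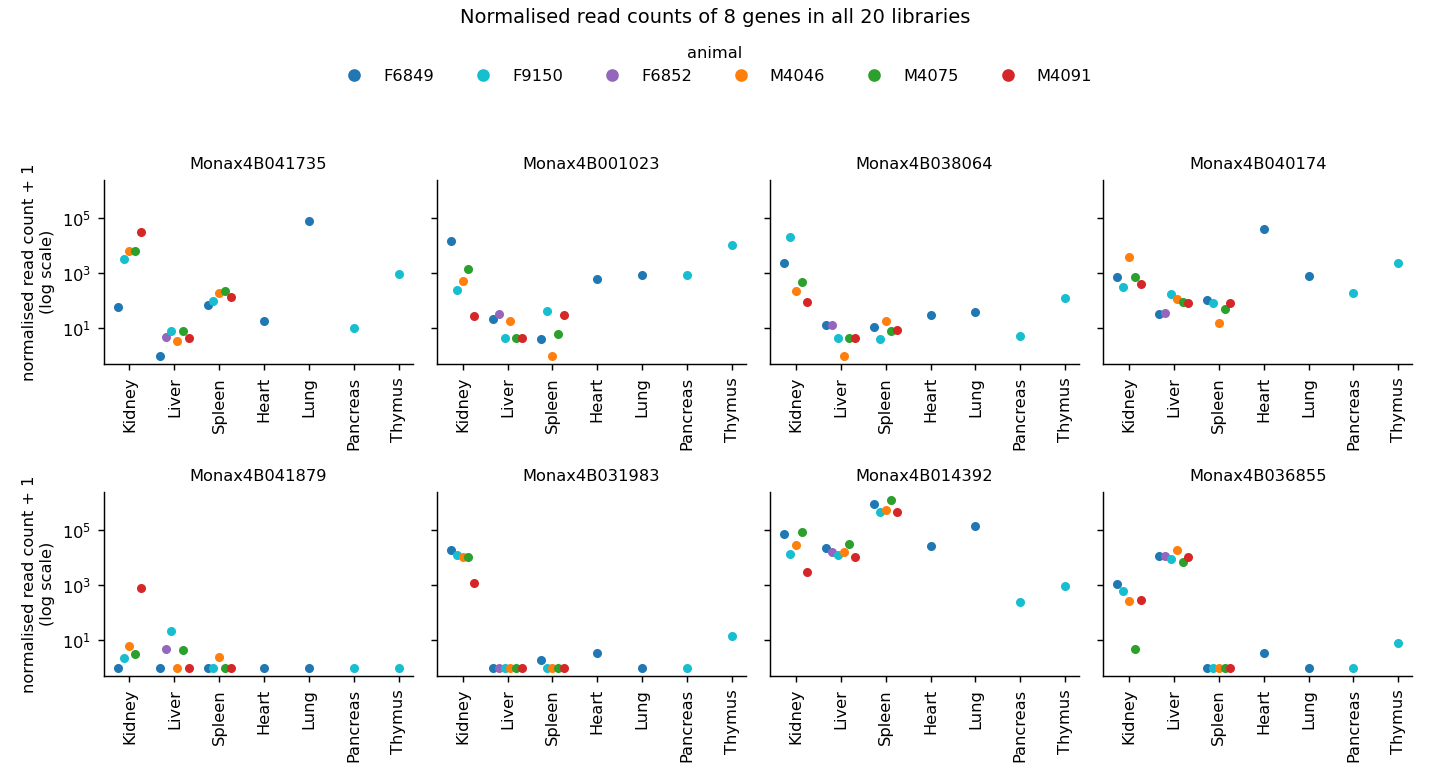
Normalised read count plus 1 (log scale) of 8 of the genes in each of the 20 libraries, by tissue, with 1 point per library coloured by animal. Kidney values are scattered, as for Monax4B041735 from 57.4 to 30655, while livers and spleens of the same animals lie close together or near 0.

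Over the 150 genes, log2(N + 50) correlated between kidneys with a Pearson's r of 0.279 to 0.651 for the 4 pairs with M4091 and of 0.708 to 0.844 for the 6 other pairs. Over the other 12183 genes these values were 0.913 to 0.929 and 0.934 to 0.967. These are correlations across genes within pairs of libraries, and the 150 were chosen for their spread. The pair most alike was M4046 and M4075, with a median absolute difference of 0.75 on the log2 scale, and the pair least alike F6849 and M4091, with 2.69.

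Few axes are possible over 5 kidneys, and these values also chose the genes, so the shares here are a description. Neither the axis shares nor the pair correlations were made for other genes. After the mean of each gene was removed, 56.1% of the variance of the 150 genes lay on the first axis and 26.4% on the second. Of 11175 pairs of genes, 992 (8.88%) had an r above 0.9 over the 5 kidneys and 372 (3.33%) an r under −0.9, so that opposite profiles occurred side by side. Of the 51 genes highest in M4091, the lowest kidney was that of F9150 for 28, F6849 for 17 and M4046 for 6. Of the 71 lowest in M4091, the highest was that of F6849 for 31, M4046 for 17, F9150 for 12 and M4075 for 11. For 27 genes both females were lowest and the males followed in the order M4046, M4075 and M4091. Monax4B039211 was one of them, and so was Monax4B046070, at 148 and 371 in F6849 and F9150 and 441, 642 and 1220 in the males.

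The levels in liver and spleen were not used to select genes beyond their spread, and they divided the group. Every kidney was above every liver and spleen for 59 genes, 39.3% against 13.5% of all 12333. Every liver was above every kidney for 25 genes, 16.7% against 25.9%, and every spleen was above every kidney for 29 genes, 19.3% against 21.1%. Of these, 3 genes had both liver and spleen above kidney. For the other 40 genes the tissues overlapped. The first share is tied to the choice of genes, since a gene near 0 in liver and spleen passes the limit on V there.

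**Figure D4:**
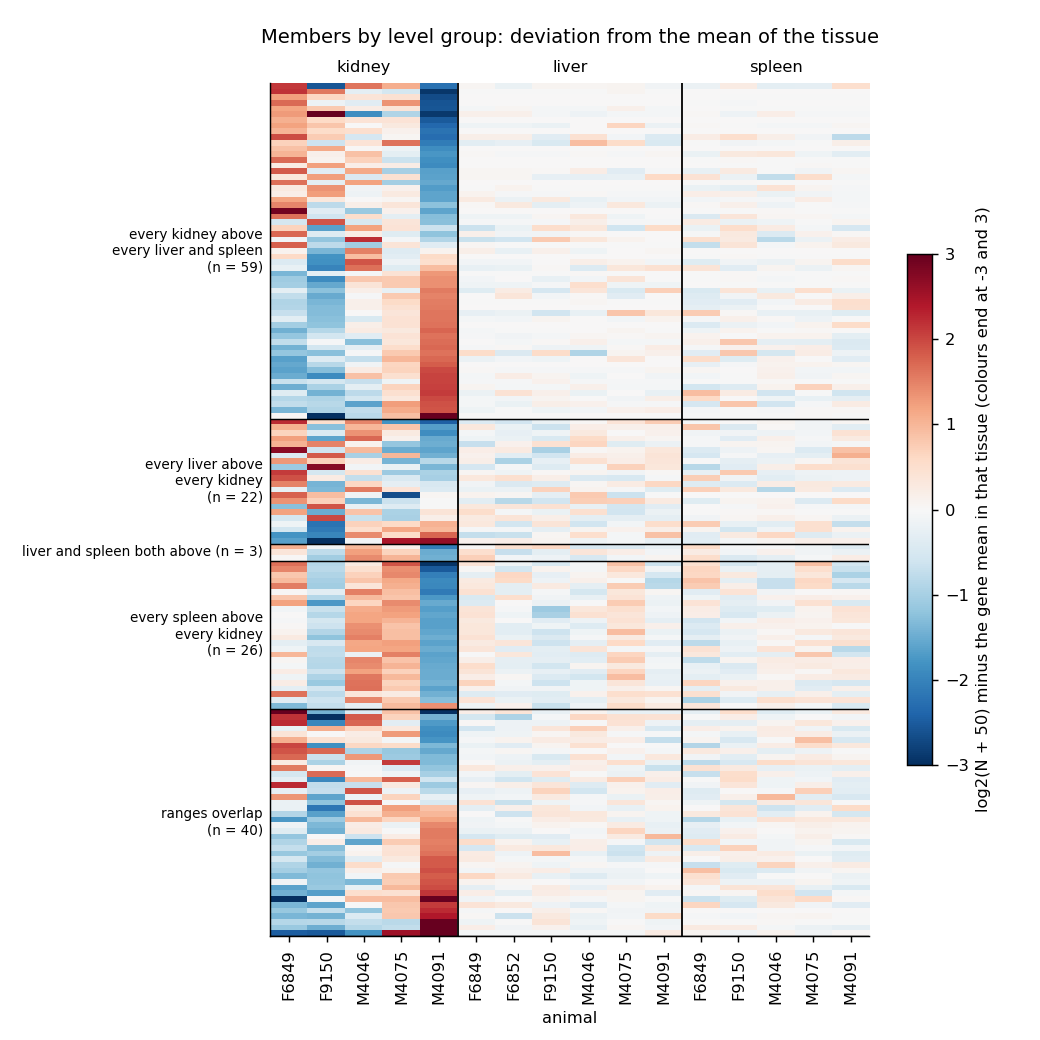
Deviation of log2(N + 50) from the gene's mean in the tissue (colour, ending at −3 and 3) for the 150 genes (rows, by level group) in 5 kidneys, 6 livers and 5 spleens (columns, by animal). Kidney M4091 is low in nearly all rows of the genes with every spleen above every kidney, and high or low in the other groups, and the livers and spleens are pale by the choice of genes.

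Most of the spleen-high genes had similar kidney profiles, with M4091 the lowest. Of the 29 genes, 27 were lowest in the kidney of M4091, 93.1% against 37.1% of the 2601 genes with every spleen above every kidney. The 2601 were not chosen for kidney spread. Of the other 411 genes with V above 5, at any spleen level, 44.0% were lowest in M4091, and the share among spleen-high genes of those 411 is not given here. The highest kidney was that of M4046 for 15 of the 29, M4075 for 9, F6849 for 4 and M4091 for 1. Shares highest in M4046 or M4075 were not made for the 2601. The median r between 2 of the 29 over the 5 kidneys was 0.906, and 52.2% of their pairs were above 0.9. Their median deviation from the gene's mean over kidneys was −1.56 in M4091, −0.80 in F9150, 0.11 in F6849, 0.96 in M4075 and 1.18 in M4046 on the log2 scale, where the 2601 genes had medians between −0.07 and 0.05. Relative to the median of the other 4 kidneys, M4091 was at a median log2 ratio of −2.06, with a range of −3.89 to 1.87. Spleen M4091 was the lowest of the 5 spleens for 12 of the 29.

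The 2 genes with the highest lung values were also spleen-high. Monax4B014392 was at 74980, 13160, 29012, 88634 and 3103 in the kidneys of F6849, F9150, M4046, M4075 and M4091, and at 440805 to 1215820 in the spleens. Monax4B012038 was at 63220, 11806, 26220, 24386 and 7496 in the same kidneys and at 219267 to 373190 in the spleens. Both were lowest in M4091 and next lowest in F9150, but the former was highest in M4075 and the latter in F6849. In the livers the former was at 10813 to 31187 and the latter at 7160 to 13138, and the lung values were 139997 and 244854.

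A pair chosen after their values were seen shows the same with lower kidney levels. Monax4B001359 was at 716, 542, 2054, 1340 and 119.8 in the kidneys of F6849, F9150, M4046, M4075 and M4091, at 872 to 1756 in the livers and at 28695 to 48643 in the spleens. Monax4B027628 was at 509, 406, 2086, 1109 and 172 in the same kidneys, at 1031 to 1273 in the livers and at 30172 to 46575 in the spleens. Their highest kidney was M4046, and their order over the 5 kidneys was identical.

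The genes most in excess in spleen were all lowest in that kidney. Every spleen was at least 5 times the highest kidney for 18 of the 150 genes, and all 18 were lowest in M4091, against 95 of 134 (70.9%) over all 12333 genes. At 10 times it was 13 of 13 genes, against 40 of 49 (81.6%). These shares over all genes include genes of any kidney spread. The 2 exceptions among the 29, named after their values were seen, were not among the 18. Nor were some genes lowest in M4091, such as Monax4B039281, so closeness to kidney did not set the 2 apart. Monax4B046809 was highest in M4091, at 1213 against 145 to 900 in the others, with spleens of 1619 to 2852, and Monax4B037850 was lowest in F9150, at 189.9 against 229 in M4091.

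Liver-high genes had no common kidney profile. Of the 25, 11 were lowest in M4091 (44.0% against 25.8% of the 3192 genes with every liver above every kidney), and 11 were highest in F6849. Among the other 411 genes with V above 5, at any liver level, 44.0% were lowest in M4091 and 21.4% highest in F6849. The median r between 2 of the 25 was 0.156. Monax4B012242 was at 20549 in F6849, 3138 in F9150, 16250 in M4046, 4602 in M4075 and 11691 in M4091, below every liver (22718 to 48808), and its spleens held no more than 1.64. Monax4B044239 was at 5373, 1222, 9413, 8932 and 12071 in the same kidneys, so that only F9150 stood apart, and at 49366 to 105807 in the livers. Where every liver was at least 5 times the highest kidney (13 genes), 6 were lowest in M4091, against 65 of 222 (29.3%) over all 12333 genes.

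Kidney-high genes were about as often highest as lowest in M4091, and most pairs of them were neither alike nor opposite. Of the 59, 26 were highest in M4091 (44.1% against 32.6% of the 1668 genes with every kidney above) and 25 were lowest in it (42.4% against 21.7%). The median r between 2 of them was 0.06, with 13.2% of pairs above 0.9 and 7.83% under −0.9. For 30 of the 150 genes, 20.0%, every kidney was above all 15 other libraries, against 5.30% of all genes. Of these 30, 12 (40%) were highest and 15 (50%) lowest in M4091, against 33.6% and 25.4% of the 654 such genes. Of the 40 genes with overlapping tissues, 21 (52.5%) were highest in M4091 and 11 (27.5%) lowest, against 28.3% and 23.9% of 5574. The 1668, 654 and 5574 genes were not chosen for kidney spread. Among the other 411 genes with V above 5, at any level outside kidney, 27.5% were highest and 44.0% lowest in M4091.

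**Figure D5:**
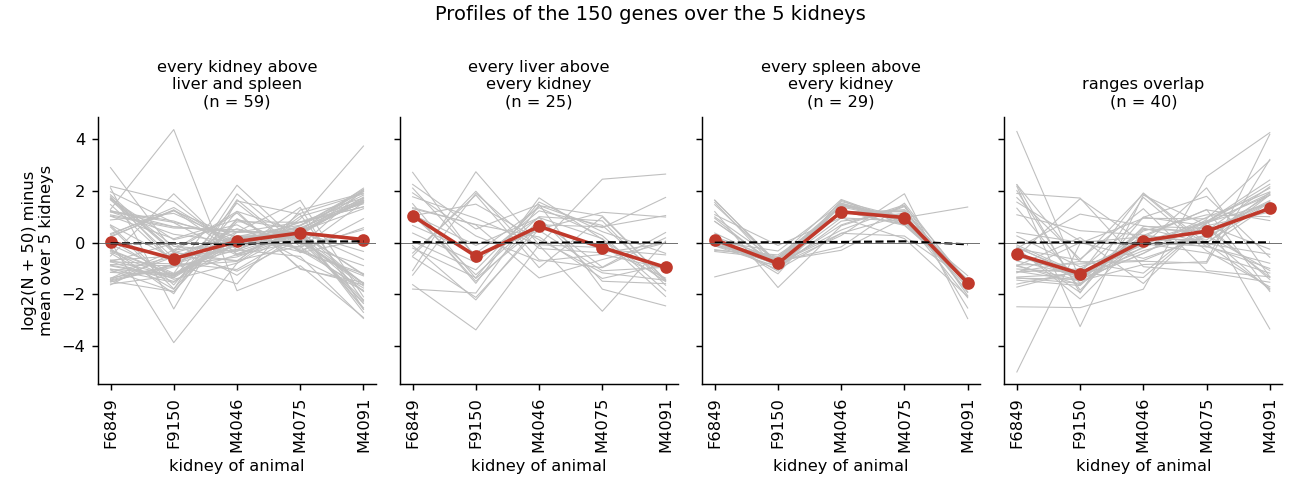
Deviation of log2(N + 50) from the gene's mean over the 5 kidneys (vertical) by animal (horizontal) for the 4 level groups, with 1 grey line per gene, the median of the group in red and the median of all genes of the same level group dashed. The 3 genes with both liver and spleen above kidney are drawn in 2 panels. Most of the spleen-high genes run together, with a median from −1.56 in M4091 to 1.18 in M4046.

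Of the 40 genes with every liver and spleen at 100 or above, 29 (72.5%) were lowest in M4091 and 6 (15%) highest. The same shares over all genes at that level were not computed. Many of the 40 were also spleen-high genes, such as Monax4B001359 and Monax4B027628, so these shares partly restate the result for that group. Of the other 411 genes with V above 5, at any liver and spleen level, 44.0% were lowest and 27.5% highest in M4091. Thus 6 of the 51 genes highest in M4091 and 29 of the 71 lowest in it had levels in liver and spleen at 100 or above throughout.

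The animal at the extreme in kidney was not more often at the extreme in liver or spleen than over all genes. The animal with the highest kidney also had the highest liver for 40 of the 150 genes, 26.7% against 30.8%, and the highest spleen for 27, 18.0% against 26.8%. The lowest kidney and the lowest liver were of the same animal for 30 genes, 20.0% against 28.7%, and the lowest kidney and spleen for 37, 24.7% against 27.8%. The rule left out genes that also varied widely in liver or spleen. A lower match than over all genes may in part follow from that choice. Near 0, the rank of a liver or spleen is set by few reads. Ties, as at 0 reads in every liver, were given to the first animal in the order F6849, F9150, M4046, M4075, M4091. Some of the matches are therefore ties and not a shared extreme, as for Monax4B031983, highest in kidney F6849 and without reads in any liver.

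By sex, every male kidney was above both female kidneys for 43 of the 150 genes, 28.7% against 12.5% of all 12333 and 21.2% of the other 411 genes with V above 5. Of these 43, 39 were highest in M4091. Both females were above every male for 20 genes, 13.3% against 13.8% of all 12333 and 7.79% of the other 411. Of these 20, 17 were lowest in M4091. The splits by M4091 within the 43 and the 20 were not made for the other sets. With 3 males against 2 females an exact permutation test of a single gene cannot reach a two-sided p of 0.05, the smallest it allows being 0.2, and no test by sex was made. Both female kidneys were on lane 3 and no male kidney was, so sex and lane cannot be told apart here.

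The choice of genes used the spread within liver and within spleen, and favoured genes near 0 there, but not the difference between them. The comparison of liver with spleen is therefore not independent of the choice, and its shares are given as a description. With edgeR's quasi-likelihood test and Benjamini-Hochberg adjustment over 20764 genes, 148 of the 150 genes could be tested, Monax4B020385 and Monax4B041879 being too low. At an adjusted p of 0.05, 35 were higher in liver, 23.6% against 34.5% of all genes, and 71 lower in liver, 48.0% against 39.5%. With libraries scaled by total count only, both contrasts with all genes turned round, to 19.6% against 13.2% higher and 57.4% against 73.3% lower in liver. The median log2 fold of liver over spleen was −1.91 for the 148 genes and −0.14 for all. It was −1.90 with 7 genes, at 0 counts in every liver or every spleen and with a usable bound, set to a floor of 3 counts over the tissue.

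The genes named here had the largest fitted log2 folds between liver and spleen, which depend on the fit where a tissue is at or near 0 counts. Monax4B036855 was at 11300 ± 3938 in liver (SD, n = 6) with no read in 5 spleens, at least 25104-fold higher in liver at that floor (edgeR adjusted p = 3.19e-06). Monax4B012242 was at 35222 ± 10581 in liver (SD, n = 6) and 0.65 ± 0.89 in spleen (SD, n = 5; edgeR adjusted p = 2.11e-10). In the other direction, Monax4B033978 was at 74.9 ± 32.9 in spleen (SD, n = 5) and 0.40 ± 0.98 in liver (SD, n = 6; edgeR adjusted p = 4.91e-06). Monax4B044761 was at 18.0 ± 18.3 in spleen (SD, n = 5) with no read in 6 livers, at least 22.8-fold higher in spleen (edgeR adjusted p = 0.00675). By that bound it ranked below genes with reads in both tissues, such as Monax4B030330, at 2680 ± 821 in spleen (SD, n = 5) and 27.9 ± 18.3 in liver (SD, n = 6), with a log2 fold of liver over spleen of −6.53.

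Monax4B044761 and Monax4B033978 were nevertheless kidney-high genes. The former was at 296, 256, 752, 897 and 2129 in the kidneys of F6849, F9150, M4046, M4075 and M4091, and was highest in M4091. The latter was at 2187, 326, 265, 792 and 461 in the same order, highest in F6849, and reached 8880 in the lung of that animal.

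Between kidney and liver, 93 genes were higher in kidney, 62.8% against 30.9%, and 27 lower, 18.2% against 32.1%, with a median log2 fold of 4.05 against −0.03 for all. With total counts only as the scale, the share higher in kidney was 77.03% against 77.7% of all genes, and the share lower 13.5% against 7.78%. Between kidney and spleen, 99 were higher in kidney, 66.9% against 31.6%, and 33 lower, 22.3% against 30.9%, with medians of 3.78 and −0.01. Both comparisons share the kidney libraries, and the choice of genes required an N of 500 in a kidney and favoured genes near 0 elsewhere, so these counts give no independent support. As an example, Monax4B014392 had a log2 fold of kidney over spleen of −4.12 with an SE of 0.72 (edgeR adjusted p = 0.000138), and of kidney over liver of 1.15 with an SE of 0.61 (edgeR adjusted p = 0.114).

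In the single libraries of the remaining tissues, lung was above every kidney for 38 of the 150 genes, 25.3% against 27.4% of all, and heart, pancreas and thymus for 14 each, 9.33% against 35.8%, 33.2% and 34.5%. Of the 38 genes higher in lung, 18 were highest in the kidney of M4046 and 10 in that of M4075. This split was not made over all genes with lung above every kidney. For 13 genes none of the 4 libraries was above an N of 10. These values come from 1 library per tissue and were not tested.

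The highest pancreas values belonged to genes far lower in kidney. Monax4B006732 was at 1846800 in pancreas and at 299.7, 515, 878, 1524 and 3522 in the kidneys of F6849, F9150, M4046, M4075 and M4091. Monax4B006738 was at 426435 in pancreas and at 935, 4.39, 651, 118 and 14.0 in the same kidneys. The kidney of M4091, on the same lane 6 as the pancreas library, was thus the highest for the former gene and second lowest for the latter. The spleen of M4046, also on lane 6, held 14.4 and 32.8 of these genes. Of the 14 genes with pancreas above every kidney, 3 were highest in M4091.

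In thymus the highest value was that of Monax4B017774, at 328183, followed by Monax4B044239 at 68090. The former had kidneys of 290.3, 104, 1113, 477 and 245 in F6849, F9150, M4046, M4075 and M4091, below every liver (4199 to 8772) and overlapping the spleens (761 to 2354). Monax4B044239 was also the second highest in heart, at 28857, after Monax4B040174. For both Monax4B017774 and Monax4B044239 the lowest kidney was that of F9150, the animal that gave the thymus.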

How the data were processed

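RNA was polyA-selected, libraries were prepared with the TruSeq RNA kit and sequenced as paired reads. Mapping by the authors used gem-tools rna-mapper 1.6.1 and gene quantification gemtools 1.7.1 with the Monax4B annotation, and they deposited 1 table of whole-number read counts without normalisation. Between 85.1% and 86.5% of the counts above 0 are even, so the reads of a pair were apparently counted separately. Every column was mapped to a sample by its name.

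Size factors were medians of the ratio of count to geometric mean over the 16970 genes above 0 in all 20 libraries. Liver, kidney and spleen were compared in R 4.3.3 with edgeR 4.0.16 (limma 3.58.1): filterByExpr, TMM factors, a robust quasi-likelihood fit and a false discovery rate of 0.05. Each animal is the replicate of a tissue. Libraries of an animal come from the same individual, and after removal of the tissue means their 15 pairs correlated with r of 0.123 to 0.314, each above 0.1. The fits were tested on simulated data. Plots used matplotlib 3.10.9 in Python 3.11.15.

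Members, lists and rules were chosen with earlier results of these data known. At most 2 genes per class were named: the largest V, the highest mean kidney N, the largest gap of each kidney to the next (at least 2), the largest fold between liver and spleen in each direction, the highest N in each single library, and the genes beside each limit. Alternatives were TMM factors or library sizes alone, other offsets, minima and limits of V, each kidney or animal left out, DESeq2 1.42.0, RLE factors, no filter, observation weights, the animal or the lane as a block. The level groups under other factors, V of the genes without each kidney, the ratios of 5 and 10, and the genes with every liver and spleen at 100 or above were added after seeing the data. Depth, as total counts, limits the precision of low values, and PCR duplicates make counting error a lower limit. Levels were not compared per gene length, which was not used here.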

Additional observations from a re-analysis of the deposited data

Results flagged for a closer look

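Of 78 sets of values (26 named genes in kidney, liver and spleen), 7 held a library far from the others of its tissue by Dixon's ratio on log2(N + 50), and chance alone marks about 1 set in 20. The kidneys were chosen for their spread, so their 5 cases are a description. Kidney M4091 was apart for Monax4B041937 (2995, the next 51.4), Monax4B041879 (786, the next 5.03), Monax4B031983 (1178, the next 10360) and Monax4B001137 (479, the next 3999), and kidney M4046 for Monax4B043832 (918, the next 185). In liver, F9150 was apart for Monax4B041879 (20.6, the next 4.08) and M4075 for Monax4B006738 (25.6, the next 7.21). No spleen was far from the others.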

How the results depend on the processing

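The 229 genes passing every limit became 137 with an offset of 200, 344 with a V limit of 4 and 89 with one of 8, where 30 were highest and 43 lowest in kidney M4091. They were 219 with TMM factors (143 of the top 150 shared), 316 with library sizes alone (119 shared), 183 with an offset of 10 (88 shared) and 290 with a minimum of 200 or with none (133 shared). Leaving out 1 kidney gave 94 to 214, and 72 to 146 of the 150 kept V above 5, the lowest in both cases without M4091. With any of the other 4 kidneys left out, M4091 was highest for 53 to 60 and lowest for 66 to 85. Among the 150, of genes with every liver and spleen at 100 or above, 15% were highest and 72.5% lowest in M4091, without a share over all genes at that level. Many of those genes were spleen-high ones. With TMM factors and library sizes alone, 27 and 35 genes had every spleen above every kidney, 25 and 34 of them lowest in M4091.

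Among the 150, the 6 counts of called genes stayed within 1.5 times under all alternatives, with 29 to 38 higher and 66 to 85 lower in liver than in spleen. The counts over all genes did not: scaled by total count only, those higher in liver than spleen went from 7157 to 2747, those lower from 8200 to 15211, those higher in kidney than liver from 6407 to 16126 and those lower from 6670 to 1615, so that the contrasts with liver turned round or closed. On that scale, all genes had their median log2 fold moved from −0.14 to −1.68 for liver over spleen and from −0.03 to 1.52 for kidney over liver, and that of the 148 genes from −1.91 to −3.14 and from 4.05 to 5.61. With the animal as a replicate block the calls among the 150 were 36 higher and 71 lower for liver over spleen, for kidney over liver 89 and 31, and for kidney over spleen 93 and 35. Low libraries are limited by few reads, and 5 kidneys with 1 library per animal come from 5 animals, so that animal and library cannot be told apart.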
